A study of Rattus with 4 samples.

Results

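RNA bound by the splicing factor RBM25 was examined here at 56 genes of chromatin remodelling and histone modification, chosen by name. A peak was taken for a gene when the deposited annotation assigned it to that gene, and all 56 symbols were found in the RefSeq name table. Of the 2696 peaks of immunoprecipitate (IP) replicate 1, 62 lay in these genes (2.30%), and of the 8108 peaks of replicate 2, 216 did (2.66%). The cells were H9C2, rat cardiac myoblasts grown as an established line. After ultraviolet cross-linking and digestion with micrococcal nuclease, 2 RBM25 IP samples and 2 input samples were sequenced, and the peak list of each IP sample was used. The labels of the 4 samples give the cell line and whether the sample is an IP or an input, with no treatment or genotype beyond that, and do not say whether RBM25 was overexpressed in these cells, as it was in cells of the RNA sequencing part of the study. Whether the replicates are separate cultures is not stated in the labels.

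Chromatin remodellers are enzymes of the SNF2 family that use ATP to slide, evict or exchange nucleosomes, and most of them act inside large complexes such as SWI/SNF, NuRD, INO80 and TIP60. A second group of enzymes writes or erases acetyl and methyl groups on histone tails, and bromodomain proteins bind the acetylated tails. RBM25 is a nuclear protein that associates with the U1 snRNP, the particle that recognises 5' splice sites, so its contacts are looked for in pre-mRNA near exon-intron junctions.

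The tags of a peak, in the authors' deposited lists, measure its signal. By their values they are whole numbers per 50-nt bin, averaged over bins in longer peaks, and no scaling for depth was seen. Depth is unknown here, so tags describe peaks within a list. Where 2 tag values are given for a peak without further words, the first is of replicate 1 and the second of replicate 2. In the 2 lists the lowest called peaks had 19 and 20 tags, and the medians over all peaks were 24 and 26 tags. A gene without a peak had no bin called, which is not evidence that RBM25 was absent from it. The amount of RNA and the extent of binding cannot be told apart in these values. Of 13 muscle and H9C2 marker genes, Tnnt2 and Tpm1 had a peak in each list, and Acta2 and Mef2c in replicate 2. The remaining muscle and H9C2 markers had no peak in either list. Of 6 markers of endothelium, leukocytes and epithelium none had a peak. Among all protein-coding genes only 7.69% had a peak in either list, so its absence from 6 markers says little about cell identity. Ranges in parentheses after a percentage are 95% Wilson intervals, which cover counting error only. No test between conditions was possible, because both lists come from IP samples.

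Peaks were found in 32 of the 56 chromatin genes (57.1%), against 7.69% of protein-coding genes with a peak in either list. In replicate 1, 18 genes had a peak (32.1%, 21.4 to 45.2), against 3.71% of the 23154 protein-coding genes in the name table. In replicate 2, 32 had one (57.1%, 44.1 to 69.2), against a background of 7.33%. The 18 genes of replicate 1 were all among the 32 of replicate 2. Genes without RNA in these cells count in the background, and the list was drawn up with earlier results of these data known, so the gap to the background is a description.

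A peak was called shared when it overlapped a peak of the other list on the same strand. In 17 genes at least 1 peak was shared (30.4%, 19.9 to 43.3), against 2.64% of protein-coding genes. Of the 32 genes with any peak, 17 held a shared one (53.1%, 36.4 to 69.1), against 34.1% of all 1914 genes with a peak. The 17 were Smarca4, Smarcc1, Smarcc2, Smarce1, Chd2, Chd3, Chd4, Ep400, Kmt2d, Setd1a, Setd5, Ehmt2, Ezh2, Kdm4a, Hdac5, Brd2 and Dnmt1. In 12 of them a sense peak was shared (21.4% of the 56, 12.7 to 33.8), against 1.85% of protein-coding genes. Only antisense peaks were shared in Smarce1, Chd2, Chd4, Ep400 and Kdm4a. With peaks at or above the median tags of their list alone, 9 genes kept a shared peak. The share of all genes under that filter is not given here.

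No peak was called in 24 genes. These were Smarcb1, Smarcd1, Smarcd2, Arid1a, Arid1b and Arid2 of SWI/SNF, the remodeller genes Chd1, Chd7, Chd8 and Ino80, the acetyltransferase genes Ep300 and Kat5, and the methyltransferase genes Setd2, Nsd1 and Ehmt1. The remaining 9 were Suz12, Kdm1a, Kdm3b, Kdm5a, Kdm5b, Hdac1, Hdac3, Hdac4 and Sin3a.

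Peaks were spread unevenly over the 32 genes. The median gene had 2 peaks in replicate 1 and 4 in replicate 2, where all genes with a peak had medians of 2 and 3. The 6 genes with the most peaks in replicate 2, Chd3, Smarcc2, Kmt2d, Chd4, Dnmt1 and Setd1a, held 120 of its 216 peaks (55.6%) and 33 of the 62 of replicate 1 (53.2%). In replicate 2, 9 genes had 10 peaks or more, and Smarca5, Chd9, Kat2a and Kmt2e had 1 each. No count of all genes with 10 peaks or more is given here.

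**Figure D1:**
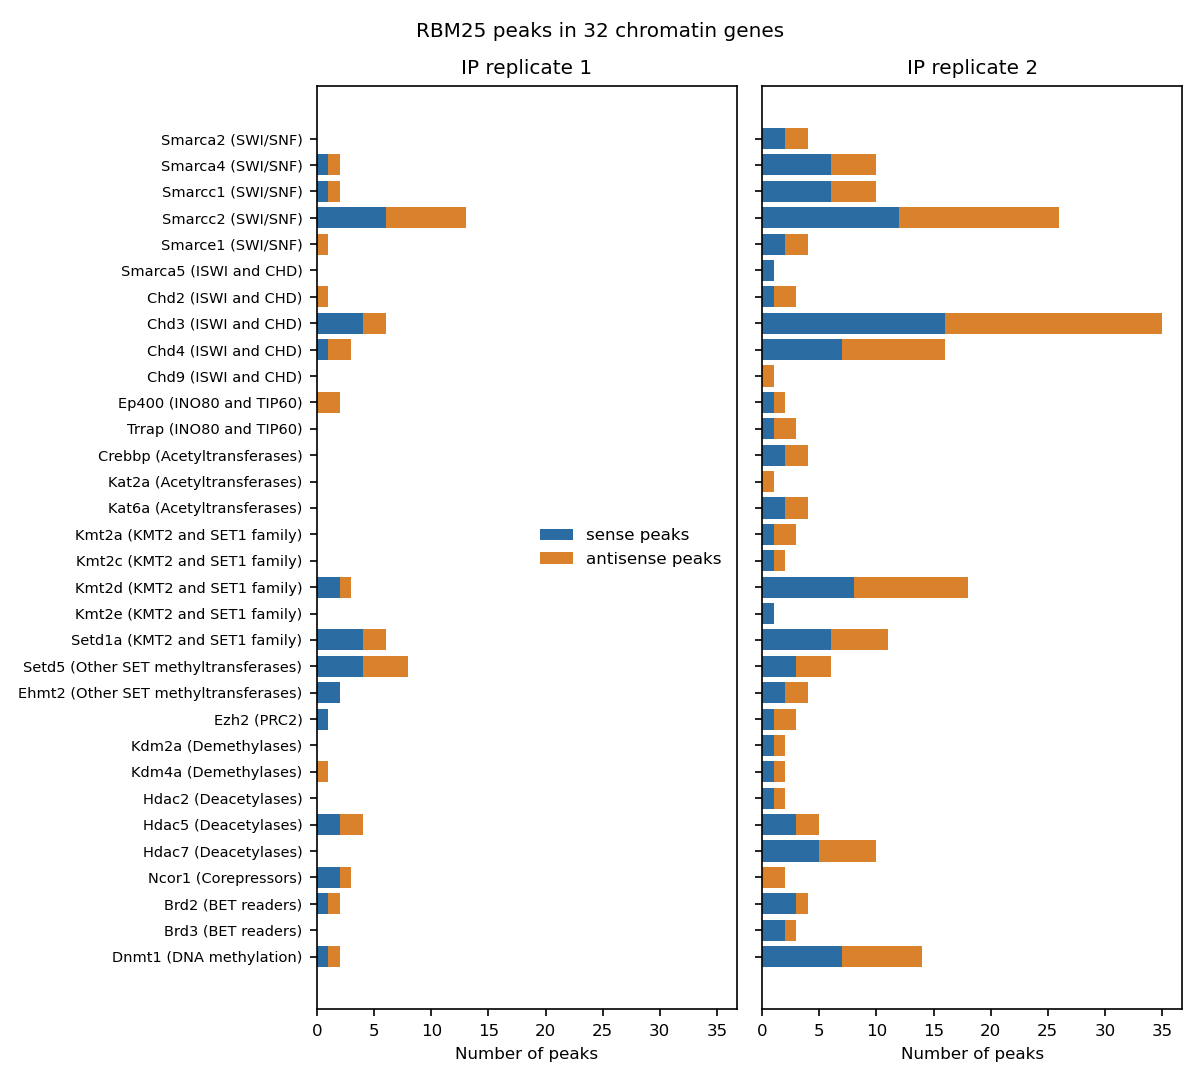
Number of RBM25 peaks (horizontal axis) in each of the 32 chromatin genes with a peak (vertical axis, with the complex or family), in IP replicate 1 (left) and IP replicate 2 (right). Blue bars are sense peaks and orange bars antisense peaks. Chd3 had 35 peaks in replicate 2 and 6 in replicate 1, and Smarcc2 had 26 and 13.

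In the SWI/SNF genes among the 56, every replicate 1 peak recurred. This complex pairs the ATPase SMARCA2 or SMARCA4 with a scaffold of SMARCC1 and SMARCC2 and with variable ARID subunits. Of its 11 genes among the 56, 4 had a peak in replicate 1 and 5 in replicate 2 (background 3.71% and 7.33%). The 18 replicate 1 peaks were all shared. Smarcc2 gave 13 of these 18, and the other SWI/SNF genes 5. In the other genes of the 56 together, 32 of 44 replicate 1 peaks recurred (72.7%), against 61.0% of all replicate 1 peaks. The BET, Dnmt1, demethylase and PRC2 groups, with 1 or 2 replicate 1 peaks each, also had all of them shared.

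Smarcc2 ranked 18th among 922 genes by number of peaks in replicate 1 and 15th among 1819 in replicate 2. Its peaks fell in 14 separate positions over 15.45 kb of chromosome 7, and they formed groups at 890300 to 891250, 894600 to 895100 and 902550 to 905750. All coordinates are those of the deposited lists, for which the submitters' processing notes name the build mRatBN7.2. In the middle group, the sense peak at 894800 to 894850, with a fraction of 0.20 in coding sequence and the rest in intron, had 26 and 49 tags. The sense peak at 895050 to 895100 had 23 and 43 tags, and the antisense peak of the same bin 35 and 51 tags. At 904800, where the best-ranked shared peak of the gene began, sense tags were 45 and 52 and antisense tags 43 and 53. At 905700 to 905750 the sense peak had 28 and 55 tags, and the antisense peak 28 and 72. Thus at these last 3 positions both strands were called in both lists, and each of the 13 shared Smarcc2 pairs had higher tags in replicate 2, as did 76.0% of all overlapping pairs of the lists.

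The tallest Smarcc2 peaks were in replicate 2 alone. At 904550 to 904600, a boundary bin with a coding fraction of 0.22, the sense peak had 101 tags and the antisense peak 116, and an antisense peak at 904100 to 904200 had 106.5. Replicate 1 had no called peak in either bin, although its antisense peak at 904650 to 904700 lay 50 nt away, with 23 tags.

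**Figure D2:**
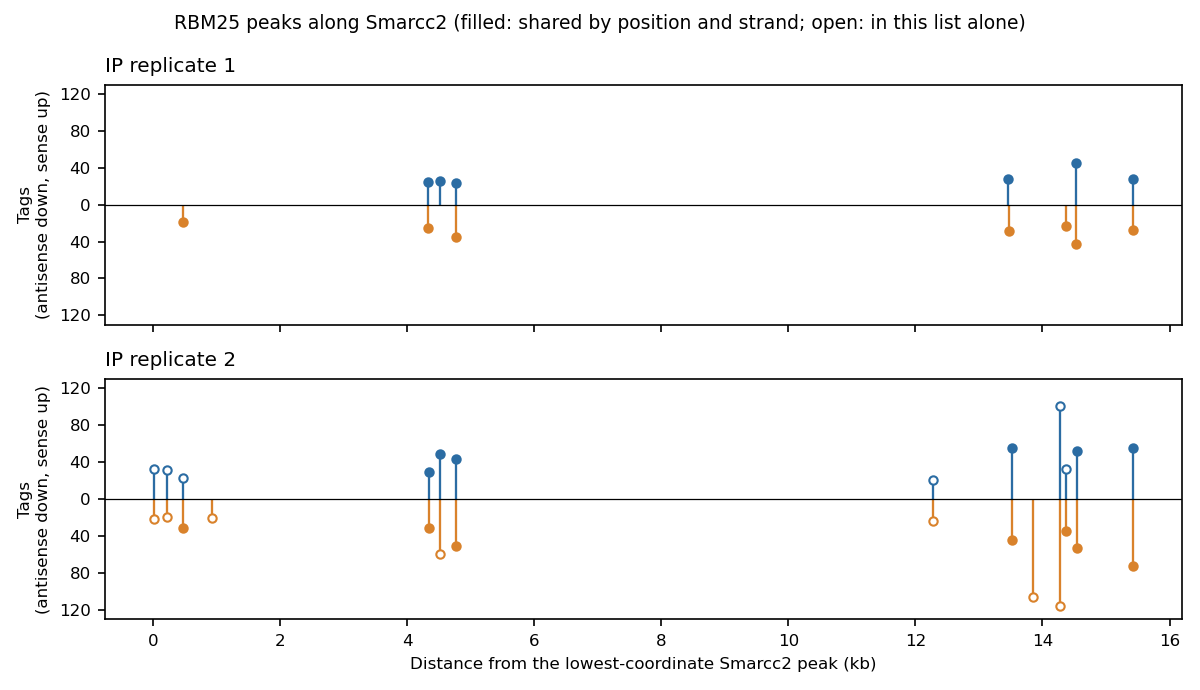
Tags of each RBM25 peak along Smarcc2 (vertical axis, sense upwards in blue and antisense downwards in orange) by distance in kb from its lowest-coordinate peak (horizontal axis), in replicate 1 (top) and replicate 2 (bottom). Filled points are shared by position and strand, and open points are in that list alone. All 13 replicate 1 peaks are filled, and the tallest peaks of replicate 2, with 101, 106.5 and 116 tags, are open.

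Smarcc1, the paralogue of Smarcc2, had 2 peaks in replicate 1 and 10 in replicate 2, over 43.55 kb of chromosome 8. Its shared position was 110192100 to 110192150, where the sense peak had 21 tags in each list and the antisense peak 21 and 25. These tags sat close to the lowest called values. Its highest peak, sense at 110151200 to 110151250 with 64 tags, was in replicate 2 alone and had no antisense peak beside it.

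The ATPase gene Smarca4 also had 2 and 10 peaks, and 1 of its 6 positions recurred. At chromosome 8, 20194900 to 20194950, the sense peak, with a coding fraction of 0.94, had 24 and 47 tags, and the antisense peak 29 and 52 tags. The alternative ATPase gene Smarca2 had 4 peaks, all in replicate 2, the strongest with 29 tags. Smarce1, which encodes an HMG-box subunit, shared an antisense peak with 26 and 25 tags at chromosome 10, 84160200 to 84160250, and its highest peak, a sense boundary peak with 46 tags, was in replicate 2 alone.

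CHD remodellers, whose chromodomains bind histone tails, were represented mainly by the NuRD ATPase genes Chd3 and Chd4. NuRD joins nucleosome remodelling to histone deacetylation. In the ISWI and CHD genes, 3 of 8 had a peak in replicate 1 and 5 of 8 in replicate 2 (background 3.71% and 7.33%). Of their 10 replicate 1 peaks, 8 recurred (background 61.0%).

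Chd3 had 6 peaks in replicate 1, all shared, and 35 in replicate 2, the sixth highest number of any gene in that list. They covered 23 positions over 20.8 kb of chromosome 10. The best-ranked shared peak, sense at 54069300 to 54069350 with a coding fraction of 0.30, had 34 and 54 tags. An antisense peak with 59 tags was called in that bin in replicate 2 alone. At 54080350 to 54080400, sense tags were 21 and 33 and antisense tags 25 and 36. A wholly coding peak at 54084600 to 54084700 had 26.5 and 36.5 tags. Of its 16 sense peaks in replicate 2, 13 were boundary peaks (background 68.1%).

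On chromosome 4, Chd4 had 3 replicate 1 peaks and 16 replicate 2 peaks, and 1 was shared. That peak, antisense at 157903050 to 157903100, had 23 and 28 tags. The strongest Chd4 position, 157924150 to 157924200, had 67 sense and 101 antisense tags in replicate 2 and no call in replicate 1. In replicate 1 a sense peak with 24 tags at 157899450 to 157899500 spanned 5' UTR and intron, and an antisense peak with 31 tags lay in the next bin. The replicate 2 antisense peak with 23 tags began at 157899550, where the replicate 1 antisense peak ended, and was not counted as shared. Chd2 shared an antisense peak with 25 and 24 tags, at chromosome 1, 127214050 to 127214100. Smarca5, the ISWI ATPase gene, had 1 sense boundary peak with 20 tags, and Chd9 1 antisense peak with 24 tags, each in replicate 2.

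At 2 bins of these genes the opposite-strand peak belonged to another gene in the annotation. The Chd4 sense peak at 157916500 to 157916550 faced a peak of the noncoding gene LOC120102389, and the Chd3 sense peak at 54089850 to 54089900 a peak of LOC102557195. In the name table, whose assembly is GRCr8, 16 of the 32 genes with a peak overlapped another gene, 7 of them a protein-coding one. Strand and position of these overlaps were not compared with the peaks.

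INO80 and TIP60 genes held few peaks. Ep400, the ATPase of the TIP60 complex, shared an antisense peak at chromosome 12, 45928900 to 45928950, with 24 and 31 tags. The same bin had a sense boundary peak with 26 tags in replicate 2. Trrap, the large scaffold of TIP60 and SAGA, had 3 peaks in replicate 2 with at most 24 tags. Among the acetyltransferase genes, Crebbp had 4 peaks, Kat6a 4 and Kat2a 1, all in replicate 2. The strongest Crebbp peaks, a sense boundary peak and the antisense peak of its bin, had 25 tags each. The strongest peak of Kat6a had 27 tags and that of Kat2a 26, both antisense. None of the 4 genes of this group, Ep300 included, had a peak in replicate 1. Only 3.71% of protein-coding genes had one there, so this absence says little.

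**Figure D3:**
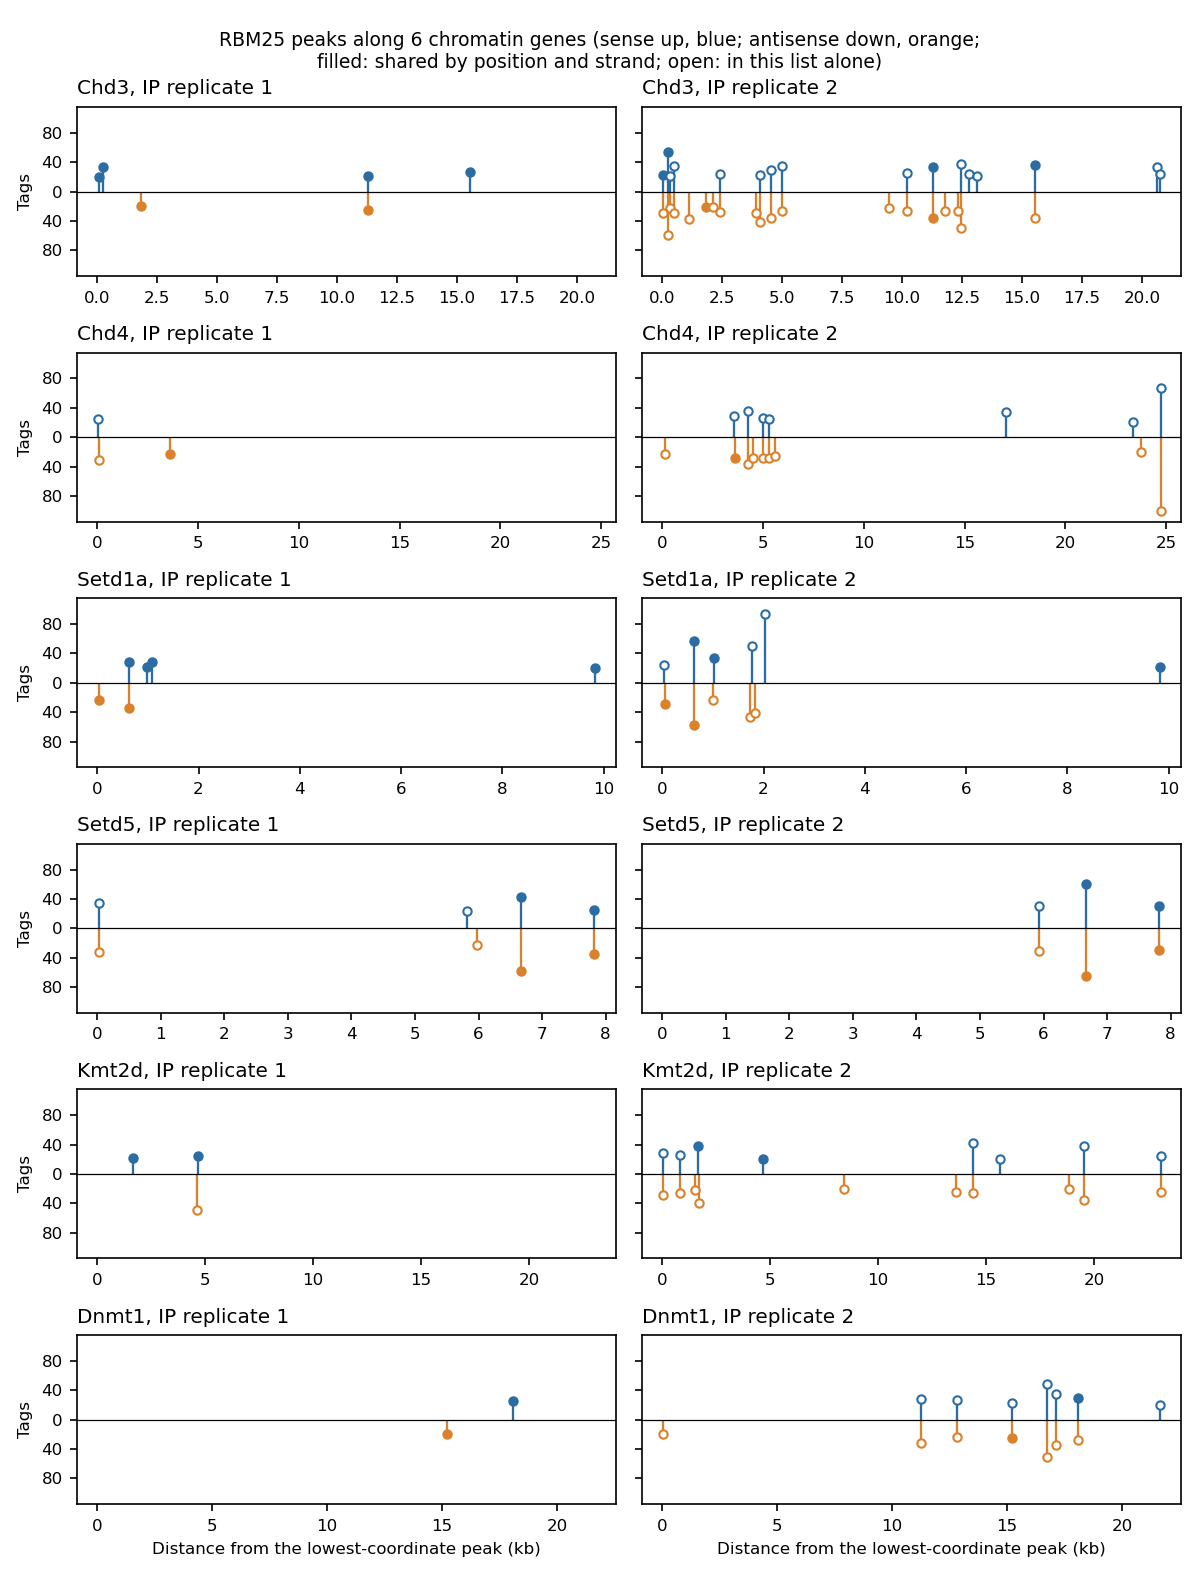
Tags of RBM25 peaks along Chd3, Chd4, Setd1a, Setd5, Kmt2d and Dnmt1 (vertical axes, sense upwards in blue, antisense downwards in orange) by distance in kb from the lowest-coordinate peak of the gene (horizontal axes), with replicate 1 on the left and replicate 2 on the right. Filled points are shared by position and strand, and open points are in that list alone. In Chd3 all 6 replicate 1 peaks are filled, and in Setd5 replicate 1 has more peaks than replicate 2, 8 against 6.

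The 5 KMT2 and SET1 family genes among the 56 all had a peak in replicate 2 (background 7.33%). Setd1a and Kmt2d, 2 of the 5, also had one in replicate 1 (background 3.71%). These proteins are the catalytic or related SET-domain subunits of complexes that methylate histone tails at promoters and enhancers. Of the 9 replicate 1 peaks of these 5 genes, 8 recurred (background 61.0%).

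On chromosome 1, replicate 1 had 6 peaks of Setd1a, all shared, and replicate 2 had 11. At 182398600 to 182398650, a boundary bin with a coding fraction of 0.36, sense tags were 28 and 57, and antisense tags 35 and 58. The sense peaks that began at 182398950 and 182399050 in replicate 1 had 21 and 28 tags, and both fell within 1 longer replicate 2 peak with 33.3 tags. A wholly coding peak at 182407800 to 182407850 had 20 and 22 tags. The tallest Setd1a peak, wholly coding at 182400000 to 182400050 with 93 tags, was in replicate 2 alone. The shared peaks of Setd1a thus lay on both strands, in boundary and in coding bins.

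Kmt2d had 3 peaks in replicate 1 and 18 in replicate 2, over 23.1 kb of chromosome 7. Its best-ranked shared peak, sense at 129993000 to 129993050 with a coding fraction of 0.80, had 22 and 38 tags. At 129995950 to 129996000 replicate 1 had an antisense peak with 49 tags, the tallest of the gene in that list, and replicate 2 had no antisense peak there. The sense peaks that overlapped at 129996000 to 129996050 had 24.5 and 20 tags. Kmt2a, Kmt2c and Kmt2e had 3, 2 and 1 peaks, all in replicate 2. Their strongest peaks were antisense with 23 tags in Kmt2a, antisense with 26 in Kmt2c and a sense boundary peak with 23 in Kmt2e.

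Setd5, the gene of a SET-domain protein linked to corepressor complexes, held the best-ranked shared peak of all 56 genes. At chromosome 4, 146262050 to 146262100, antisense tags were 58 and 65, and sense tags 43 and 60. The bin had a coding fraction of 0.82. At 146263200 to 146263250, sense tags were 25 and 30 and antisense tags 35 and 30. Setd5 was also the gene with the most replicate 1 peaks that did not recur, 4 of its 8. Those at 146255400 to 146255450 had 34 sense and 32 antisense tags in replicate 1 and no peak in replicate 2. The antisense peak with 23 tags that began at 146261350 touched a replicate 2 antisense peak that ended there, which was not counted as shared. The sense peak at 146261200 to 146261250, also with 23 tags, lay near a replicate 2 sense peak at 146261300 to 146261350.

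Ehmt2, which encodes a methyltransferase of repressive chromatin, had 2 sense peaks in replicate 1, and both recurred. At chromosome 20, 3928600 to 3928650, tags were 24 and 25, and at 3928900 to 3928950 a peak with 19 tags in replicate 1 fell within a longer one with 28.3 in replicate 2. Ezh2, the catalytic subunit gene of Polycomb repressive complex PRC2, was the gene whose shared peak spanned a 5' UTR and an intron. That sense peak, at chromosome 4, 76687200 to 76687250, had 19 and 28 tags.

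Among demethylase genes, Kdm4a shared an antisense peak with 21 and 34 tags at chromosome 5, 131701500 to 131701550, and replicate 2 also had a sense boundary peak with 24 tags there. Kdm2a had a coding sense peak and an antisense peak in replicate 2, the latter with 36 tags.

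Deacetylase genes had peaks mainly in Hdac5 and Hdac7, which encode class IIa enzymes that shuttle between nucleus and cytoplasm and repress muscle gene programmes through MEF2. On chromosome 10, Hdac5 had 4 and 5 peaks in the lists of replicates 1 and 2, of which 3 were shared. At 87159550 to 87159600, a wholly coding bin, antisense tags were 49 and 31, and sense tags 25 and 31. The sense peak at 87159900 to 87159950, with a coding fraction of 0.02, had 25 and 23 tags. An antisense peak with 52 tags at 87163900 to 87163950 was in replicate 1 alone, where replicate 2 had a sense peak with 26.5. The shared antisense Hdac5 peak thus had higher tags in replicate 1, unlike most shared peaks. Hdac7 had 10 peaks in replicate 2, 5 on each strand, with up to 42 tags, and none in replicate 1. The class I gene Hdac2 had a boundary peak with 30 tags and an antisense peak with 26 in replicate 2.

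Ncor1, a corepressor that recruits deacetylases, had a peak in each list without a shared one. In replicate 1 a sense boundary peak had 26 tags and the antisense peak of its bin 24, at chromosome 10, 47069350 to 47069400, and a second sense boundary peak had 21. In replicate 2 both peaks were antisense, with 23 and 28 tags, at other bins.

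The BET gene Brd2, whose bromodomain protein reads acetylated histones, shared a sense peak at chromosome 20, 4733550 to 4733600, with a coding fraction of 0.58 and 30 and 50 tags. An antisense peak overlapped between lists at 4733400 to 4733450, with 25.5 and 40 tags. Brd3 had 3 peaks in replicate 2, with up to 44 tags.

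Dnmt1, the maintenance DNA methyltransferase gene, lies on chromosome 8, where replicate 1 had 2 of its peaks, both shared, and replicate 2 had 14. The sense boundary peak at 19471450 to 19471500 had 25 and 30 tags, and the antisense peak at 19468600 to 19468650 had 20 and 25 tags. The strongest Dnmt1 bin, 19470100 to 19470150, had 49 sense and 51 antisense tags in replicate 2 and no call in replicate 1. Every sense peak of Dnmt1 in either list, 1 in replicate 1 and 7 in replicate 2, was a boundary peak (background 63.9% and 68.1%). The replicate 2 peak at 19475050 to 19475100 counted as one with a fraction of only 0.02 in intron.

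Recurrence was then counted over peaks. Of the 62 replicate 1 peaks in chromatin genes, 50 recurred by position and strand in replicate 2 (80.6%, 69.1 to 88.6), against 61.0% of all replicate 1 peaks. Without Smarcc2, a setting chosen after seeing the data, the share was 75.5%. With tags at or above the list median it was 68.3%, and with 51-nt peaks alone 63.2%. With peaks within 50 nt counted as shared it was 85.5%. No share of all peaks is given under these settings, so they have no matched background. In the longer list the shared peaks were 49 of 216 (22.7%, 17.6 to 28.7), against 20.3% over all genes. By strand, 27 of 32 sense peaks of replicate 1 recurred (84.4%, background 64.6%) and 23 of 30 antisense peaks (76.7%, background 60.0%). Boundary peaks recurred in 21 of 24 cases (87.5%, background 73.1%). The 12 replicate 1 peaks that did not recur lay in 6 genes, 4 in Setd5 and 3 in Ncor1. Peaks of a gene are not independent, and no test was made of these shares.

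**Figure D4:**
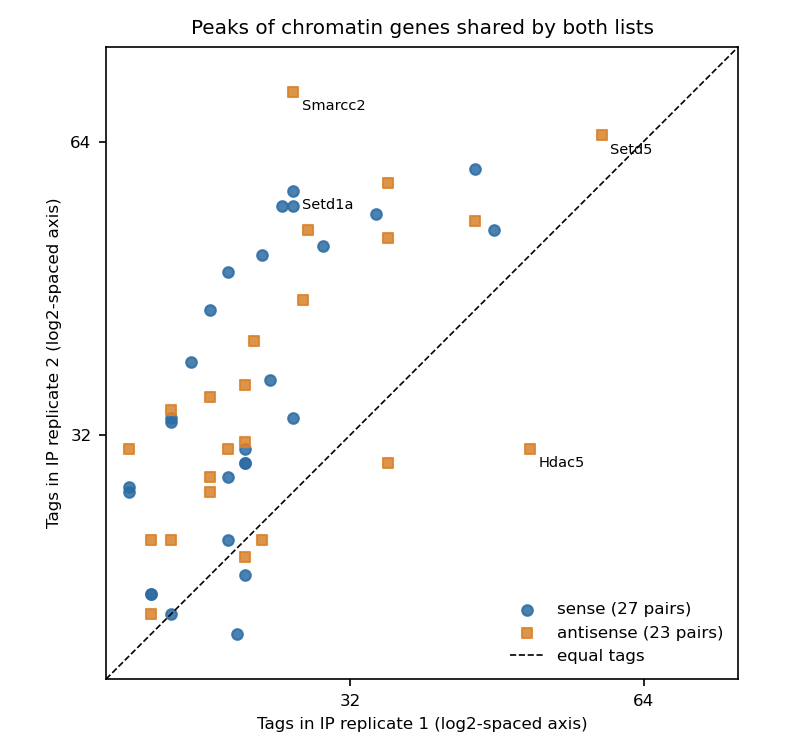
Tags of the 50 pairs of overlapping same-strand peaks in 17 chromatin genes, in IP replicate 1 (horizontal axis) and IP replicate 2 (vertical axis), both log2-spaced. Circles are sense pairs, squares antisense pairs, and the dashed line marks equal tags. In 43 pairs the point lies above the line, and the antisense Hdac5 pair, with 49 and 31 tags, lies farthest below it.

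Tags of shared peaks were higher in replicate 2 in 43 of 50 pairs, lower in 6 and equal in 1, with a median ratio of 1.33. Over all 1649 overlapping pairs of the lists, 1253 were higher in replicate 2 (76.0%, against 86.0% in chromatin genes), and the median ratio was 1.24. Without Smarcc2, 30 of 37 pairs were higher (81.1%) and the median ratio was 1.25. The ratio ran from 0.63 for the antisense Hdac5 pair to 2.57 for an antisense Smarcc2 pair. Spearman's rho between replicates was 0.67 over the 50 pairs and 0.62 over the 37 pairs outside Smarcc2, against 0.43 over all pairs. These are descriptions across peaks, many of which share a gene or lie on opposite strands of 1 bin.

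Tags of chromatin gene peaks had a median of 25 in replicate 1, from 19 to 58, and of 28 in replicate 2, from 20 to 116, beside list medians of 24 and 26. None reached the highest tags of the lists, 453 and 651. In replicate 2, shared peaks had a median of 33 tags and the others 26, beside 31 and 25 over all peaks. In replicate 1 both medians were 25, beside 25 for shared and 23 for other peaks of the whole list. The 5 tallest replicate 2 peaks, in Smarcc2, Chd4 and Setd1a, were not among the shared ones.

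Antisense peaks made up 30 of 62 peaks in replicate 1 (48.4%, 36.4 to 60.6) and 111 of 216 in replicate 2 (51.4%, 44.8 to 58.0), close to the 51.6% and 49.3% of all peaks. In replicate 2, 79 of the 111 antisense peaks had an opposite-strand peak of the same list in their bin (71.2%, background 67.2%), and in replicate 1 15 of 30 did (50%, background 41.9%). In such pairs within a gene, antisense tags were higher in 10 of 15 pairs in replicate 1 and in 47 of 79 in replicate 2. Sense tags were higher in 3 and 25 pairs, and the rest were equal. Of the sense peaks, 15 of 32 (46.9%, background 50.5%) and 80 of 105 (76.2%, background 73.5%) had an opposite-strand peak in their bin. The median antisense share of tags in the pairs within a gene was 54.3% and 51.9%. For the tags of such pairs no count over all peaks is given here, so these values have no matched background. Pairs were counted only where both strands were called, which favours near-equal shares. The source of the antisense signal was not tested.

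At 12 positions in 7 genes all of the sense and antisense peaks of both lists were called. Smarcc2 had 5 of them, Setd5 2, and Chd3, Hdac5, Setd1a, Smarca4 and Smarcc1 1 each. At 11 of the 12 the sense peak was a boundary peak, and at Hdac5 it was wholly coding. In each list antisense tags exceeded sense tags at 9 of the 12, equalled them at 2 and were lower at 1. No such counts over all genes are given here, so these values have no matched background.

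Most sense peaks of the chromatin genes crossed from coding sequence into intron. A boundary peak is a sense peak whose annotation holds both coding sequence and intron. There were 24 among 32 sense peaks in replicate 1 (75%, 57.9 to 86.7) and 82 among 105 in replicate 2 (78.1%, 69.3 to 84.9), against 63.9% and 68.1% of all sense peaks. By list, Smarcc2 had 6 and 9 boundary peaks, Chd3 2 and 13, Chd4 0 and 7, Dnmt1 1 and 7, Kmt2d 2 and 6, and Smarca4 and Smarcc1 1 and 5 each. At least 1 boundary peak was found in 12 genes in replicate 1 and in 26 in replicate 2. No count of all genes with a boundary peak is given here, so these have no matched background. When coding sequence and intron each had to fill at least 10% of the peak, the shares were 53.1% and 62.9%, and those of all sense peaks 52.3% and 57.2%, so the gap in replicate 1 narrowed to under 1 percentage point.

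Within boundary peaks the coding part varied widely. Its fraction ran from 0.02 to 0.96 in replicate 1, with a median of 0.57, and from 0.02 to 0.98 in replicate 2, with a median of 0.68. The medians over all boundary peaks were 0.56 and 0.60. Coding sequence took the larger part of the bin in 14 of 24 boundary peaks in replicate 1 (58.3%, background 56.5%) and in 55 of 82 in replicate 2 (67.1%, background 60.6%).

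**Figure D5:**
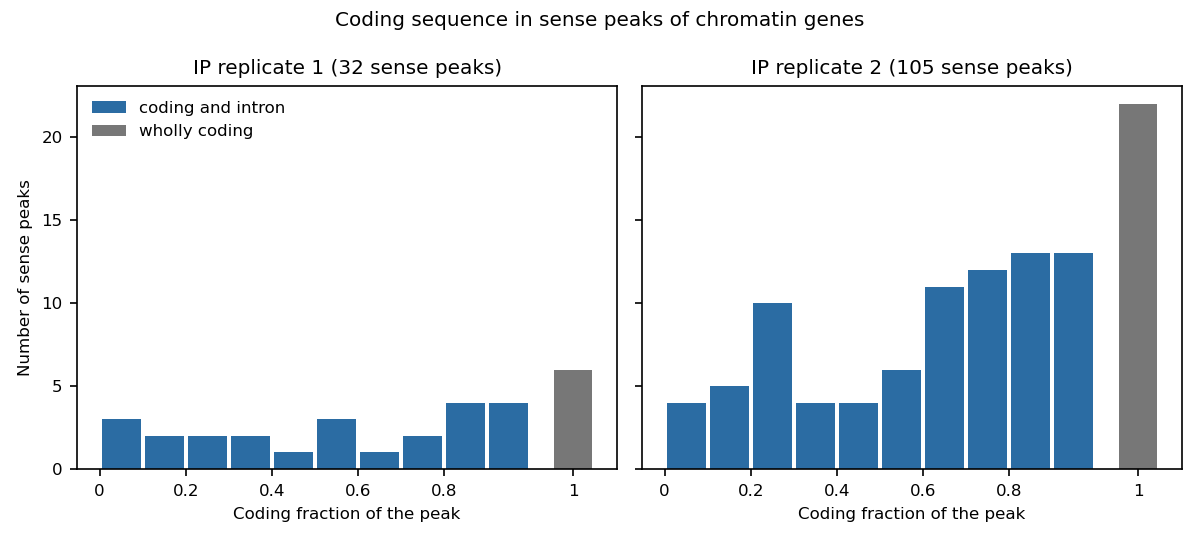
Number of sense peaks of chromatin genes (vertical axis) by the fraction of the peak in coding sequence (horizontal axis), in IP replicate 1 (left) and IP replicate 2 (right). Blue bars are boundary peaks in steps of 0.1 and the grey bar at 1 is wholly coding peaks. Boundary peaks were found at all coding fractions, and wholly coding peaks numbered 6 and 22.

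Wholly coding bins made up 6 of 32 sense peaks in replicate 1 (18.8%, background 16.8%) and 22 of 105 in replicate 2 (21.0%, background 17.0%). A 5' UTR with intron was covered by 2 peaks in replicate 1, in Chd4 and Ezh2, and by 1 in replicate 2, in Ezh2 (background 4.67% and 3.83%). No sense peak lay wholly in an intron, 0 of 32 and 0 of 105, with Wilson upper limits of 10.7% and 3.53% (by the rule of 3 counts of the total, a share of up to 9.38% and 2.86%), against 4.00% and 5.07% of all sense peaks. None touched a 3' UTR (background 0.917% and 2.03%).

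A wider list of 92 chromatin genes from the same complexes had fewer genes with peaks. In replicate 1, 12 had a peak (13.0%, 7.62 to 21.4), in replicate 2 27 (29.3%, 21.0 to 39.3), and 9 had a shared one (9.78%, 5.23 to 17.6). The difference from the 56 genes was not tested, since those were chosen with results known. The best-ranked shared peak was a sense boundary peak of Srcap, the SWR-type remodeller gene, with 37 and 53 tags. Baz1b, which encodes a partner of the ISWI ATPase, had 34 and 56 tags, and the demethylase gene Kdm5c 40 and 33, both at sense boundary peaks. Baz2a, another ISWI partner, had 33 and 39 tags at an antisense peak. Brd7, the gene of a bromodomain subunit of SWI/SNF, had 24 and 32 tags at a sense peak across 5' UTR and coding sequence.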

How the data were processed

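Peak lists of the 2 RBM25 IP samples were used, and the 2 input samples were not analysed here. The authors' deposited lists hold, for each peak, where it lies and on which strand, its tags, length and p-value, and an annotation. How the authors made the signal called tags is not given beyond the aligner below; as deposited, its values are whole in 51-nt peaks and show no depth scaling. The deposited p-value was not used to filter peaks. Per the submitters' processing notes, HISAT2 and the rat assembly mRatBN7.2 were used; for the peak caller, its settings and its control, the method is not given in the sources used here.

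Overlap treated positions as half-open, so bins that only touch did not overlap. Of 1914 gene names, 1829 matched a RefSeq symbol (GRCr8, used for names alone), 19 a synonym and 66 none. The genes, their complexes, the wider list and the markers were chosen with earlier results of these data known. Every member was named, and those with a peak were given with their best-ranked shared peak by mean rank of tags or, with none shared, their strongest peak. Of the wider list, the 6 genes with the best-ranked shared peaks were to be named, of which 1 is not reported here. Other peaks were chosen after their values were seen. Sequences of the build were not used here. The overlap code was tested on simulated data. Software was scipy 1.17.1, pandas 2.3.3, numpy 2.4.6 and matplotlib 3.10.9 under Python 3.11.15.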

Additional observations from a re-analysis of the deposited data

How the results depend on the processing

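Alternatives covered the tag threshold, the overlap rule, strand, peak length, the definitions of antisense and boundary, and leaving out each list, and, added after seeing the data, Smarcc2 and, for tags, peak length and strand. Of 40 values, 34 stayed within 1.5 times the main count, within its interval or, for median tags, within its quartiles. Genes with a peak in either list ranged from 18 to 32 when a replicate was left out. With tags at or above the list median, 9 genes in place of 17 had a shared peak and 68.3% of replicate 1 peaks recurred in place of 80.6%. With 51-nt peaks alone 63.2% recurred, as longer partners were removed. For the tag and length settings no share of all genes or peaks is given here, so these values have no matched background. With each class at least 10% of the peak, boundary shares were 53.1% and 62.9% in place of 75% and 78.1%. No paired analysis was possible because no result comes from a test and no input list was used. Depth is unknown, and the floor of 19 or 20 tags limits which genes can appear.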
